A study of Mus musculus with 6 samples.

Results

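The 10 genes described here build, load or protect chromosome ends, and they were followed through the induction of immortalized mouse cardiosphere-derived cells (iCDCs). They are Tert and Dkc1 of the telomerase enzyme, the 7 genes of the shelterin complex in the mouse (Terf1, Terf2, Terf2ip, Tinf2, Acd, Pot1a and Pot1b), and the helicase gene Rtel1. The members were taken by gene symbol from the 54532 genes of the deposited table. All 10 symbols were found, and all 10 had enough reads to be among the 14246 genes tested. The 3 control libraries came from iCDCs of C57BL/6 heart ventricle at passage 30. The 3 induced libraries came from iCDCs at passage 30 that had been given 10 µM 5-azacytidine, an inhibitor of DNA methylation, for 3 days, and had then been kept for 4 weeks in IMDM with 2% FBS. Both groups descend from cells of adult mouse epicardium that received a lentivirus with human TERT, whose vector name gives the CMV promoter, and were then selected in puromycin. The methods of the study do not say whether the line is a clone, describe another medium and a shorter culture after the drug, and do not give the medium of the sequenced control cells, so drug, serum and time in culture cannot be told apart here.

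Telomeres are the repeat-built ends of chromosomes, and they shorten at each round of replication. Telomerase lengthens them: the reverse transcriptase TERT copies a template held in the RNA Terc, and dyskerin (Dkc1) holds that RNA in a stable particle. Shelterin coats the repeats and keeps the ends from being read as broken DNA. In it Terf1 and Terf2 bind the double-stranded repeats, Pot1 binds the single-stranded end, and Tinf2 and Acd join the parts. In the mouse the gene for Pot1 is duplicated, and telomerase stays active in more cell types of the adult than in humans. Since these cells carry a human TERT transgene, the mouse Tert row describes the endogenous gene. The transgene was not analysed here, and whether any of its reads fell on the mouse gene was not tested.

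Most transcripts of telomerase and shelterin were lower in induced cells, apart from Terf2 and Terf2ip. By edgeR's quasi-likelihood test at an adjusted p of 0.05, 8 of the 10 genes were lower, 1 was higher (Terf2ip) and 1 was not past the threshold (Terf2). Among all genes tested, 64.8% were past that threshold, with 32.2% of the genes tested lower and 32.6% higher, so a call as such was common in this comparison. The median log2 fold change over the 10 genes was -0.62, against -0.01 over all genes tested, whose middle 50% lay between -0.37 and 0.36. The largest fall was that of Dkc1 and the largest rise that of Terf2ip, so the members ranged from -1.24 to 0.35. The control and induced libraries did not overlap for any of the 10 genes, which was also true of 68.6% of the genes tested.

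**Figure D1:**
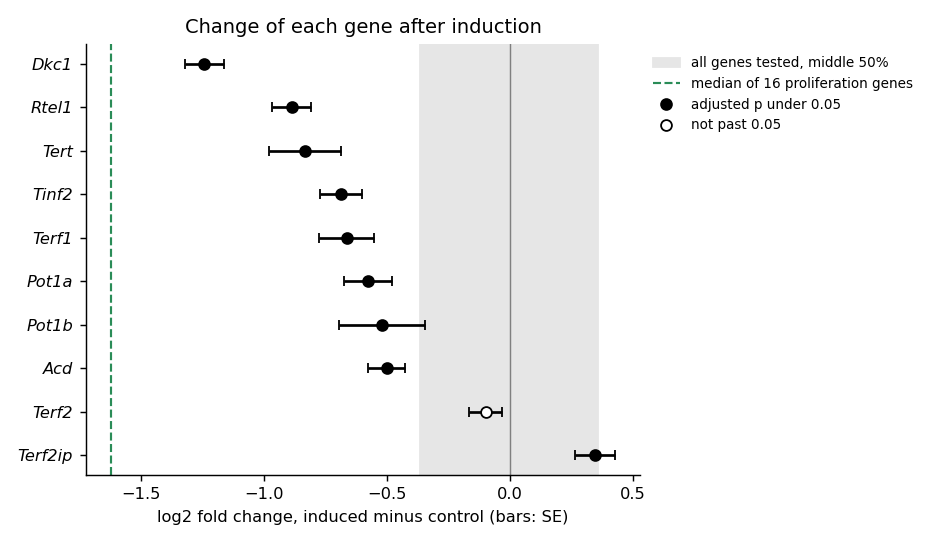
Log2 fold change of each gene, induced minus control (x axis), with its SE from edgeR as bars; filled points are past an adjusted p of 0.05. The 8 genes that fell lie left of the grey band, which holds the middle 50% of all genes tested, Terf2 and Terf2ip lie within it, and the dashed line marks the median of 16 proliferation genes at -1.62.

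The control libraries held 19343728 to 19823369 counted reads and the induced libraries 19041133 to 19449606. A gene without reads could thus have had a level of up to 0.151 to 0.158 CPM (counts scaled to a common library size), which is 3 counts of the total and covers counting error only. Levels below are CPM scaled by TMM, a factor that evens out differences in library composition. Mesenchymal markers were abundant, with a sum of 18904 to 19939 CPM over 7 genes in control and 21053 to 22536 CPM in induced libraries. Most of that sum was Col1a1, Col1a2 and Col3a1, and the 7 genes moved in both directions. Thy1, Eng, Col1a2 and Col3a1 rose, while Col1a1, Pdgfra and Pdgfrb fell, Pdgfra by 0.73 on the log2 scale. The 6 endothelial markers summed to at most 0.942 CPM in any library. Of 7 leukocyte markers, Ptprc, Cd52, Tyrobp, Itgam and Cd3e were at 0 in every library, while the sum was 1.72 to 2.15 CPM in control and 26.2 to 31.7 CPM in induced libraries, nearly all of it Cd68. The 8 cardiomyocyte markers summed to 13.1 to 16.1 CPM in control and 59.0 to 62.7 CPM in induced libraries, most of it Tnnt2. The 4 epicardial markers summed to 347 to 359 CPM in control and 1020 to 1143 CPM in induced libraries, most of it Upk3b, and they did not move together: Upk3b, Wt1 and Tcf21 rose, while Tbx18 fell from 63.6 ± 4.89 to 50.6 ± 4.59 CPM (SD, n = 3; edgeR adjusted p 0.000429). The part of these shifts in the results below was not tested. In RNA from whole cultures, fewer cells that express a gene and less RNA of it per cell cannot be told apart.

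Of the telomerase genes, Tert encodes the catalytic subunit. Its level was 6.63, 6.92 and 6.16 CPM in the 3 control libraries and 3.72, 3.78 and 3.56 CPM in the 3 induced libraries, from 390 and 210 reads in all. The induced libraries lay closer together than the control libraries and well under them. The mean fell from 6.57 ± 0.388 to 3.69 ± 0.114 CPM (SD, n = 3), a log2 fold change of -0.83 ± 0.15 (SE) with an adjusted p of 7.29e-05 by edgeR, which left 56.2% of the control level. No exon of another gene overlaps Tert (chromosome 13, 73626911 to 73649843, plus strand, GRCm38). Its promoter window is shown because the drug given to the induced cells acts on methylation of CpG. The window runs from 250 bases before to 50 bases after the RefSeq start (GRCm38.p6, chr13:73626661-73626960, plus strand), and capitals mark GC boxes, the GGGCGG motif on either strand:
Tert promoter: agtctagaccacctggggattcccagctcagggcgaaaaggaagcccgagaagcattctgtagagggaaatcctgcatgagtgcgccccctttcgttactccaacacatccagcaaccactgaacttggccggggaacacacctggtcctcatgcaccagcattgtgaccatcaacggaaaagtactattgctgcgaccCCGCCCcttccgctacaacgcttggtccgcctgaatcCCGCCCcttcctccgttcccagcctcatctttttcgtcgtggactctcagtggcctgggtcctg
It held 15 CpG and 2 GC boxes, 51 and 14 bases before the start. A GC box was present in 35.7% of the 32851 RefSeq windows of this length. DNA methylation was not analysed here.

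Dkc1 encodes dyskerin, the pseudouridine synthase that binds the H/ACA end of the telomerase RNA and also modifies ribosomal RNA. Control libraries had 33.9, 31.3 and 34.2 CPM and induced libraries 13.9, 13.2 and 14.9 CPM. Every induced library was thus below 15 CPM where no control library was below 31. The mean fell from 33.2 ± 1.60 to 14.0 ± 0.850 CPM (SD, n = 3), a log2 fold change of -1.24 ± 0.08 (SE) with an adjusted p of 1.31e-10 by edgeR, the largest fall of the 10 genes, and 42.3% of the control level remained. Only 1.09% of its exon bases (chromosome X, 75095854 to 75109777, plus strand) are shared with another gene, Mpp1, which is on the opposite strand and moved the other way, by 0.57 on the log2 scale. Its promoter window (GRCm38.p6, chrX:75095604-75095903, plus strand) is given beside that of Tert for contrast in the same marking:
Dkc1 promoter: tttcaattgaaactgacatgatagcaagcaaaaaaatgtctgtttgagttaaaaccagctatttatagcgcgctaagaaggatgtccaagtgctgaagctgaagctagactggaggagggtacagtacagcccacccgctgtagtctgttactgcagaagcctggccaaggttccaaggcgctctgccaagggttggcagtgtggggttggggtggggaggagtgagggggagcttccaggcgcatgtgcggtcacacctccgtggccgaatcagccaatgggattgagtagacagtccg
This window had 9 CpG and no GC box. The E-box CACGTG, the motif of Myc with Max, was in neither window, and in 7.15% of all windows.

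The RNA subunit Terc could not be followed. It had 1 read in the control libraries together and 1 read in the induced libraries together, under the limit of detection of each library. No difference was detectable in these libraries. Terc is a short RNA without a poly(A) tail, of 423 bases in GENCODE M21. An oligo(dT) method is among the library preparations named in the study. Whether preparation or depth limited the reads of Terc was not tested. The stretch that telomerase copies is printed because it is what makes the enzyme write telomere repeats; capitals mark the run CTAACCC, the complement of the repeat, which occurs once, at bases 29 to 35, and the window shows bases 9 to 55:
Terc: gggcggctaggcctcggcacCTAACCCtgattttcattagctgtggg

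**Figure D2:**
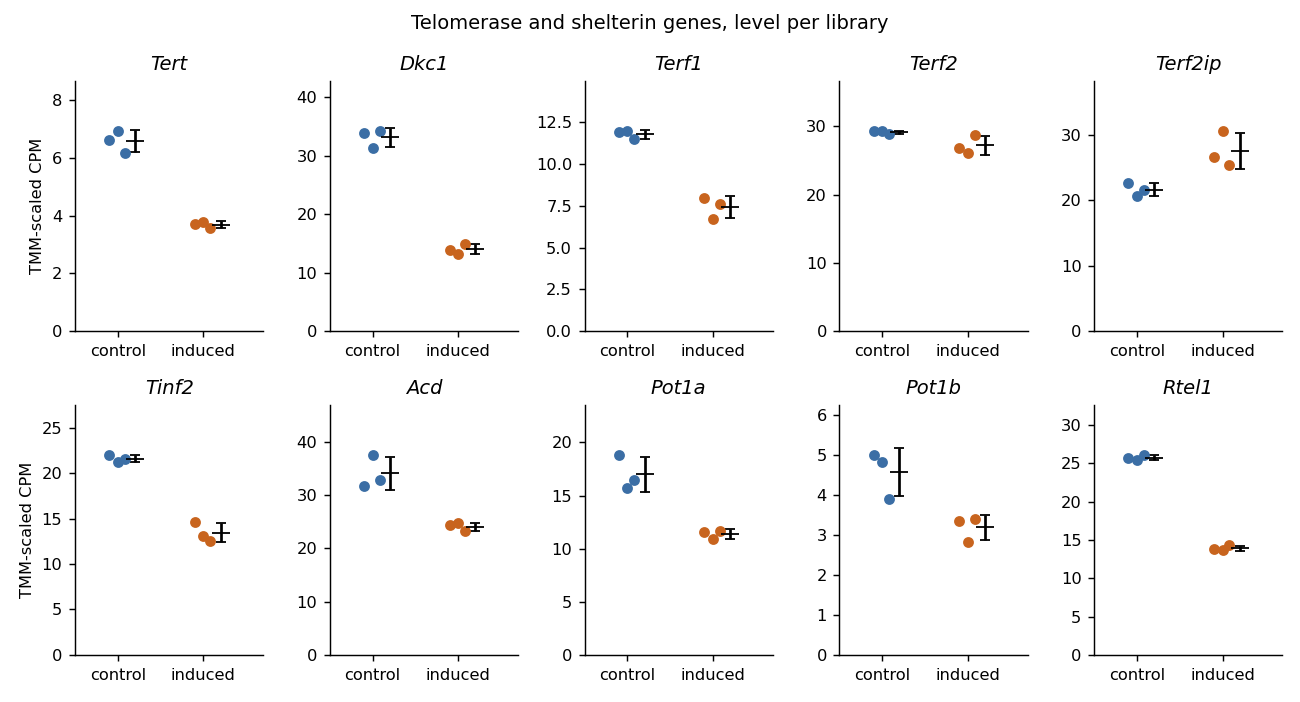
Level of each gene in TMM-scaled CPM (y axis, from 0) in 3 control (blue) and 3 induced (orange) libraries; each point is a library, and bars give the mean and SD beside the points. Each panel has its own scale; in 8 panels the induced libraries lie below the control libraries, in that of Terf2 they nearly touch, and Terf2ip is the gene whose induced libraries lie above the control libraries.

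In the arm of shelterin that binds double-stranded repeats, 1 gene fell, 1 rose and 1 did not pass the test. Terf1 (chromosome 1, 15805646 to 15844052, plus strand) encodes TRF1, which coats the duplex and helps forks to pass through it. It had 11.9, 12.0 and 11.5 CPM in control libraries and 7.96, 6.73 and 7.59 CPM in induced libraries. Control libraries were nearly alike, and every induced library was lower than every control library. On average Terf1 fell from 11.8 ± 0.273 to 7.43 ± 0.635 CPM (SD, n = 3), a log2 fold change of -0.66 ± 0.11 (SE) with an adjusted p of 4.22e-05 by edgeR.

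Terf2 (chromosome 8, 107069400 to 107096547, minus strand) encodes TRF2, which folds the end into a loop and keeps chromosomes from fusing. It had 29.3, 29.3 and 28.9 CPM in control libraries and 26.9, 26.1 and 28.7 CPM in induced libraries. Induced replicate 3 came within a fraction of a CPM of control replicate 3, although the groups did not overlap. The means were 29.2 ± 0.242 and 27.2 ± 1.38 CPM (SD, n = 3), and the difference was not past the threshold (by edgeR, log2 fold change -0.10 ± 0.07 SE, adjusted p 0.220). Its 95% interval, from -0.24 to 0.05 on the log2 scale, leaves out a fall of the size seen for Terf1.

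Terf2ip encodes RAP1, which rides on TRF2 rather than on DNA. It had 22.6, 20.7 and 21.5 CPM in control libraries and 26.5, 30.5 and 25.3 CPM in induced libraries. All induced libraries were higher, with induced replicate 2 highest. Mean Terf2ip went up from 21.6 ± 0.983 to 27.5 ± 2.71 CPM (SD, n = 3), a log2 fold change of 0.35 ± 0.08 (SE) with an adjusted p of 0.00125 by edgeR, a rise of 1.27-fold. Without induced replicate 2 the log2 fold change was 0.27 and stayed past the threshold (edgeR adjusted p 0.00393). Terf2ip (chromosome 8, 112011398 to 112020528, plus strand) shares 2.18% of its exon bases with Gm6793 of the opposite strand, which fell by 0.75 on the log2 scale. The promoter window is shown because Terf2ip was the member that rose (GRCm38.p6, chr8:112011109-112011408, plus strand); capitals mark a GC box and, near the 5′ end, an E2F-type TTTCCCGC motif on the minus strand:
Terf2ip promoter: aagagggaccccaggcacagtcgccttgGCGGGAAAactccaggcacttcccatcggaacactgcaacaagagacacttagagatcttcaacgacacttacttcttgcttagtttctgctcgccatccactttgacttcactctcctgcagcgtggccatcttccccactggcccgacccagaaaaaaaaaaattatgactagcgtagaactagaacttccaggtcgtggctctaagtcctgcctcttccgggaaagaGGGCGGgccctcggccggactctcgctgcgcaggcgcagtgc
The E2F-type motif was present in 1.07% of all windows, and among the 9 members with a window only in this one. The window held 16 CpG.

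Of the bridging subunits, Tinf2 (chromosome 14, 55674689 to 55681820, minus strand) encodes TIN2, which ties TRF1, TRF2 and the single-strand arm into one complex. It had 22.0, 21.3 and 21.5 CPM in control libraries and 14.6, 13.1 and 12.6 CPM in induced libraries. The control libraries were within 1 CPM of each other and the induced libraries lay far below them. Mean Tinf2 dropped from 21.6 ± 0.378 to 13.4 ± 1.05 CPM (SD, n = 3), a log2 fold change of -0.69 ± 0.09 (SE) with an adjusted p of 1.33e-06 by edgeR.

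Acd (chromosome 8, 105695860 to 105701102, minus strand) encodes TPP1, the partner of Pot1 that also brings telomerase to the end. It had 31.7, 37.6 and 32.9 CPM in control libraries and 24.3, 24.7 and 23.2 CPM in induced libraries. Control replicate 2 stood above the other control libraries, and all induced libraries were below all controls. For Acd the mean fell from 34.1 ± 3.09 to 24.1 ± 0.781 CPM (SD, n = 3), a log2 fold change of -0.50 ± 0.08 (SE) with an adjusted p of 1.34e-05 by edgeR. Without control replicate 2 the log2 fold change was -0.43 with the call kept. Both bridging genes overlap a neighbour on the opposite strand, Tinf2 in 31.2% of its exon bases with Gmpr2 and Acd in 33.3% with Carmil2, and the strand setting of the counting is not stated, so their levels are uncertain. Gmpr2 had 175 to 195 reads in control and 143 to 167 reads in induced libraries, without passing the test (log2 fold change -0.14, edgeR adjusted p 0.313), and Carmil2 had 3 to 8 reads in any library.

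The single-strand arm of the mouse has a pair of genes where humans have one POT1. Pot1a (chromosome 6, 25743737 to 25809246, minus strand) is the copy that holds back damage signalling at the end, and Pot1b (chromosome 17, 55651951 to 55712628, minus strand) the copy that limits trimming of the strand. Their longest open reading frames in GENCODE M21 have 1923 bases each and are 78.9% identical over 1920 aligned bases. The longest run that any transcripts of both share is 41 bases. Their first 90 coding bases are shown so that the difference can be seen, with capitals at the 18 bases that differ:
Pot1a: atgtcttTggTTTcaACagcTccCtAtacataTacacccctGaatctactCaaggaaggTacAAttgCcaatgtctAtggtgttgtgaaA
Pot1b: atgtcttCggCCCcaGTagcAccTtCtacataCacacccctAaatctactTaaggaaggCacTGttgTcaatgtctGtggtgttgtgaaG

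Pot1a had 18.8, 15.7 and 16.4 CPM in control libraries and 11.6, 10.9 and 11.7 CPM in induced libraries. The induced libraries were close together and below all controls. Pot1a thus fell from 17.0 ± 1.65 to 11.4 ± 0.435 CPM (SD, n = 3), a log2 fold change of -0.58 ± 0.10 (SE) with an adjusted p of 4.70e-05 by edgeR.

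Pot1b was the lowest gene of the 10, with 272 reads in the control and 182 reads in the induced libraries. It had 5.01, 4.84 and 3.90 CPM in control libraries and 3.34, 2.84 and 3.40 CPM in induced libraries. Control replicate 3 lay nearer to the induced libraries than to the other controls. The mean fell from 4.58 ± 0.596 to 3.20 ± 0.311 CPM (SD, n = 3), a log2 fold change of -0.52 ± 0.18 (SE) with an adjusted p of 0.0150 by edgeR. The call was lost without control replicate 1, control replicate 2 or induced replicate 2 (adjusted p 0.0652, 0.0513 and 0.0530), with log2 fold changes between -0.48 and -0.43.

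The ratio of the copies did not differ beyond the spread of the libraries. Per kilobase of gene, Pot1a exceeded Pot1b by 2.28, 1.97 and 2.56 times in control libraries and by 2.10, 2.33 and 2.08 times in induced libraries, so the induced values lay within the control range. The mean log2 ratio of Pot1b to Pot1a was -1.17 ± 0.188 in control and -1.12 ± 0.0891 in induced libraries (SD, n = 3; exact permutation test, two-sided, p 0.70, where 3 against 3 cannot go below 0.10). The difference of 0.06 turned to -0.03 without control replicate 3.

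Rtel1 encodes the helicase that unwinds telomeric loops and helps replication through the repeats. It had 25.7, 25.5 and 26.1 CPM in control libraries and 13.8, 13.7 and 14.3 CPM in induced libraries. Both groups were tight, and the gap between them was many times the spread within them. The mean fell from 25.8 ± 0.337 to 13.9 ± 0.331 CPM (SD, n = 3), a log2 fold change of -0.89 ± 0.08 (SE) with an adjusted p of 1.12e-08 by edgeR, leaving 54.0% of the control level. No exon of another gene overlaps Rtel1 (chromosome 2, 181319739 to 181356616, plus strand).

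Between genes, levels were compared as CPM per kilobase of the deposited gene length. In control cells Acd was highest at 9.40 ± 0.852 CPM per kilobase, followed by Dkc1 at 8.05 ± 0.389, Terf2 at 6.34 ± 0.0527, Tinf2 at 4.38 ± 0.0766, Terf2ip at 4.36 ± 0.198, Rtel1 at 3.89 ± 0.0509, Terf1 at 2.56 ± 0.0593, Pot1a at 1.96 ± 0.190, Tert at 1.15 ± 0.0677 and Pot1b at 0.870 ± 0.113 (SD, n = 3). The only neighbours in this order whose libraries overlapped were Tinf2 and Terf2ip. Tert, at the 21.9th percentile of all genes tested on this scale, and Pot1b, at the 18.3rd, were thus low transcripts, and Acd, at the 65.5th, the highest.

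In induced cells Acd remained first at 6.64 ± 0.215 CPM per kilobase, ahead of Terf2 at 5.92 ± 0.299 and Terf2ip at 5.54 ± 0.547, which overlapped each other. Dkc1, at 3.40 ± 0.206, stood below both of them, where in control cells it had been above both. Tinf2, Rtel1, Terf1 and Pot1a followed at 2.72 ± 0.213, 2.10 ± 0.0501, 1.61 ± 0.138 and 1.31 ± 0.0502. Tert at 0.643 ± 0.0200 and Pot1b at 0.607 ± 0.0591 overlapped and came last (SD, n = 3).

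**Figure D3:**
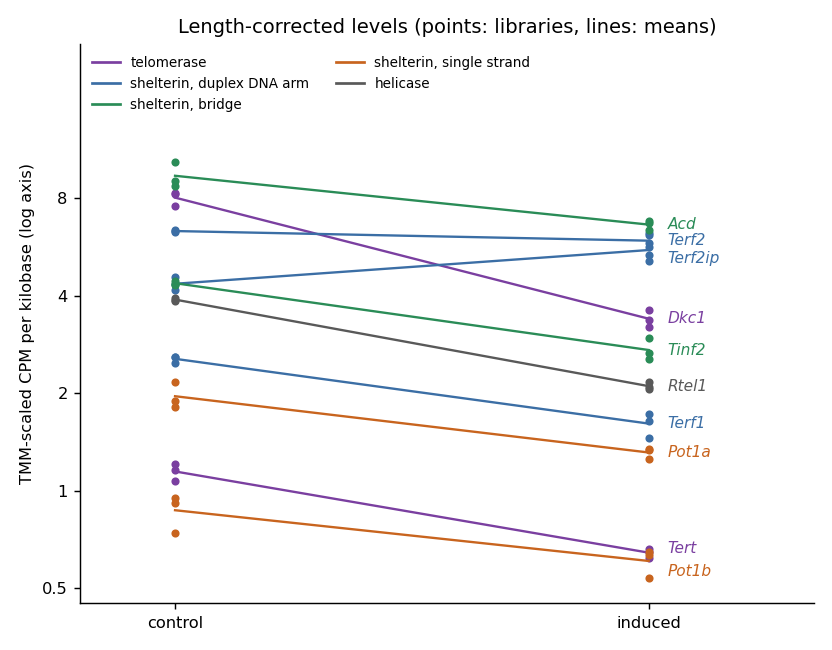
Level per kilobase of gene length (y axis, log scale) in control and induced libraries; points are libraries, lines join the group means, and colours give the role of each gene. The line of Dkc1 falls across those of Terf2 and Terf2ip, and the line of Terf2ip is the one that climbs.

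Summed over the 7 shelterin genes, the level was 29.9, 30.5 and 29.2 CPM per kilobase in control libraries and 24.6, 24.6 and 23.9 in induced libraries. Within that sum the share of Terf2ip went from 14.6% ± 0.854 to 22.7% ± 2.04 and that of Terf2 from 21.2% ± 0.331 to 24.3% ± 1.58 (SD, n = 3). The share of Tinf2 went from 14.7% ± 0.480 to 11.2% ± 0.762, that of Terf1 from 8.56% ± 0.0796 to 6.62% ± 0.590, that of Acd from 31.5% ± 2.32 to 27.3% ± 0.516, and that of Pot1a from 6.56% ± 0.681 to 5.39% ± 0.260. For these 6 genes the libraries of the groups did not overlap, as was true in CPM of 68.6% of all genes tested. Shares of a common sum are tied, so that of Terf2 went up although its own level was not past the threshold. The share of Pot1b was 2.91% ± 0.334 and 2.49% ± 0.265, with overlap. These are shares of transcripts and carry no test, since they are set by the fold changes given above.

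The wider telomere pathway and growth were described by 8 further lists. Each is given by its counts and its median, to be read against the 32.2% lower and 32.6% higher among all genes tested. Of 16 tested genes listed for telomerase assembly or control, 10 were lower (62.5%), 1 was higher (6.25%) and 5 were not past the threshold. The median log2 fold change of this list was -0.26. The share called in either direction, 68.8%, was near the 64.8% of all genes. Gar1, a protein of the same H/ACA particle as dyskerin, fell from 29.1 ± 2.06 to 14.6 ± 3.24 CPM (SD, n = 3; edgeR adjusted p 5.92e-07), and Ruvbl1, an ATPase needed to assemble the particle, fell by 0.83 on the log2 scale. Papd5, a poly(A) polymerase that tags the telomerase RNA, rose by 0.33. The other H/ACA partners of dyskerin, chosen after their values were seen, differed: Nhp2 fell by 0.44, and Nop10 had a log2 fold change of 0.18 that was not past the threshold (edgeR adjusted p 0.0591).

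The list of CST, the complex that brings in fill-in synthesis of the end, and of polymerase alpha with primase had 6 of 7 genes lower, 0 higher, and a median of -0.65. The primase subunit Prim1 fell from 17.4 ± 1.19 to 5.44 ± 0.368 CPM (log2 fold change -1.68) and the polymerase subunit Pola1 fell by 1.11 on the log2 scale. Of CST itself, named after its values were seen, Ctc1 fell by 0.59 and Stn1 by 0.24, while Ten1 had a log2 fold change of 0.05 (edgeR adjusted p 0.682).

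Of 28 tested genes for end processing and repair, 17 were lower, 1 was higher and 10 were not past the threshold (median -0.31). The 64.3% called in either direction is near the share over all genes, while 60.7% were lower. The nucleases Exo1 and Gen1 fell by 1.75 and 1.67 on the log2 scale, and the nuclease subunit Mus81 rose by 0.21. The list of tankyrases and of proteins that bind or turn over shelterin had 4 genes higher, 3 lower and 3 not past the threshold of 10 (median 0.08), which is near the shares over all genes. There the ubiquitin ligase Siah2 and the tankyrase-binding protein Tnks1bp1 rose by 0.76 and 0.33, and the nucleolar GTPases Gnl3 and Gnl3l each fell by 0.23.

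Of 20 tested genes for telomeric chromatin and its anchoring, 9 were lower, 4 higher and 7 not past the threshold (median -0.10), so that the share called was about that of all genes. Suv39h1, which methylates histone H3 at lysine 9, fell from 28.2 ± 1.75 to 7.43 ± 1.43 CPM (log2 fold change -1.92), and the lamina protein Tmpo fell by 0.96. H3f3b, for the replacement histone H3.3, and Sun1, of the nuclear envelope, rose by 0.44 and 0.32. Terb1, Terb2 and Majin, which anchor telomeres in meiosis and are named after their values were seen, had 1, 0 and 0 reads in the control libraries and 2, 1 and 1 in the induced libraries, and were not tested.

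Of 16 factors listed as regulators of Tert, 6 were lower, 5 higher and 5 not past the threshold (median -0.05), again near the shares over all genes. Whether each of them acts on the mouse promoter was not tested. Myc, an activator of Tert, fell from 87.3 ± 2.51 to 27.9 ± 1.34 CPM (log2 fold change -1.65), and Trp53 fell by 0.73. Wt1, a factor of epicardium, and Klf4 rose by 1.34 and 0.78.

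In the lists for growth, no gene was called higher. Of 14 nucleolar genes for small nucleolar particles and ribosomal RNA, 13 were lower and 1 was not past the threshold (median -0.53), led by the polymerase I subunit Polr1b and the methyltransferase Fbl, which fell by 0.98 and 0.85 on the log2 scale. All 16 proliferation genes were lower, with a median of -1.62. The mitotic kinase Plk1 fell by 2.24 and the mitotic cyclin Ccnb1 by 2.04. None of the 10 telomerase and shelterin genes fell as far as this median. The proliferation list ran from -2.24 for Plk1 to -0.64 for Rrm2, so its smaller falls overlapped those of the 10 genes. The part of the fall in proliferation genes in the change of the 10 genes was not tested.

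**Figure D4:**
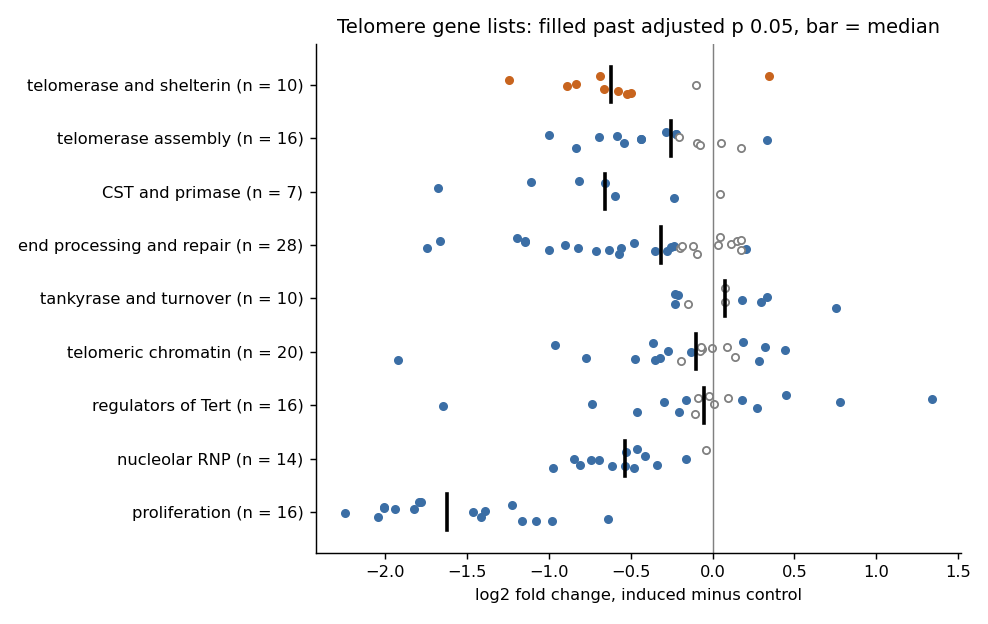
Log2 fold change, induced minus control (x axis), of every tested gene of each list; filled points are past an adjusted p of 0.05, open points are not, and the black bar is the median of the list. The telomerase and shelterin genes (orange) lie mostly between -1.24 and -0.50. Their median lies between the lists centred near 0 and the proliferation list, which has a median of -1.62 and points up to -0.64. The CST and primase list (median -0.65) and the nucleolar list (median -0.53) are centred in the same range.

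For the pair of members that changed most, the tested genes of most similar profile were found by the root mean square difference of centred log2 CPM over the 6 libraries. Nearest to Dkc1 were Cdt1, Dusp4 and St8sia1, at differences of 0.0547, 0.0594 and 0.0617 on the log2 scale, with log2 fold changes of -1.27, -1.22 and -1.26. Nearest to Rtel1 were the pseudogene Gm45855, Cct5 and Rbl1, at 0.0240, 0.0248 and 0.0272, with log2 fold changes of -0.86, -0.85 and -0.89. With 6 libraries in 2 groups such likeness is mostly likeness of the fold change.

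Promoter windows were found for 9 of the 10 genes in the RefSeq table, all but Terf1. CpG counts ranged from 7 in Acd to 24 in Tinf2, where the median over all 32851 windows was 7 and the upper quartile 20. A GC box was present in the windows of Tert, Terf2, Terf2ip, Pot1a, Pot1b and Rtel1 and not in those of Acd, Dkc1 and Tinf2. The E-box was in none of the 9, nor was the E2F-type motif TTTGGCGC, which 0.514% of all windows held; all 4 motifs were searched on both strands. The single member that rose, Terf2ip, and the one that did not pass the test, Terf2, had 16 and 18 CpG, within the range of the genes that fell. A match or its absence in these windows is a description of the letters only.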

How the data were processed

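The deposited table holds, for each gene, unnormalized read counts of the 6 libraries and FPKM values, which the authors scaled by gene length and library size. The submitters' processing notes name HISAT2 2.0.5, featureCounts 1.5.0-p3, DESeq2 1.16.1 and mm10, without roles, and the strand setting is not given in the sources used here. The deposited fold changes, p-values and Gene Ontology tables of the authors' own comparison were not used. All 10 members have the coordinates of GENCODE M21 (GRCm38), as do 98.3% of the genes found in it.

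The count test was edgeR 4.0.16 under R 4.3.3. After filterByExpr, set to a count of 10 and a total of 15, and TMM scaling, the quasi-likelihood test was applied, with Benjamini-Hochberg adjustment over all genes tested and a threshold of 0.05. Fold changes use a prior count of 0.125, SE follow from the F statistic, and 95% intervals use the degrees of freedom of the fit. Pot1a and Pot1b reading frames were aligned with mafft 7.526. Alternatives were DESeq2 1.42.0, other scalings and filters, limma 3.58.1 on FPKM, a replicate block, a threshold of 0.01 and leaving out each library. The tests were also run on simulated counts in which far fewer genes were changed than were called here. That run therefore does not show how the tests behave in a comparison like this one. The labels name 3 separate samples per group but not separate cultures, so p-values measure the spread between these samples. The methods of the study state fewer biological replicates per condition than the 3 samples named here. Its figure legend for this comparison gives n = 3. Library pairs within a group differed by more than sampling noise (chi-square per degree of freedom 2.56 to 8.91 over genes with at least 20 summed counts).

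The members and lists were chosen with earlier results of these data known. Genes named from a list are its 2 largest rises and 2 largest falls past the threshold, and Terc, with the 3 nearest profiles of the 2 members that changed most; exceptions are stated.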

Additional observations from a re-analysis of the deposited data

How the results depend on the processing

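Of 150 fold changes of the 10 genes under 15 alternatives, 146 kept their direction and their side of the threshold, 0 reversed and 4 lost the call, all of them for Pot1b. Its log2 fold change was -0.52 at a threshold of 0.01, where its adjusted p of 0.0150 no longer passes, and ranged from -0.62 to -0.43 when 1 library at a time was left out. Its adjusted p over all alternatives ranged from 0.00897 to 0.0652. Terf2 passed the threshold under none of the alternatives (adjusted p 0.0931 to 0.457), and Terf2ip passed it under all of them (adjusted p at most 0.00991). The number of genes called among all genes tested ranged from 7783 to 9765, against 9225. Scaling by library totals shifted the median over all genes from -0.01 to -0.04 on the log2 scale and that of the 10 genes from -0.62 to -0.66. On log2(FPKM + 1) the median of the 10 genes was -0.41, since the pseudocount of 1 shrinks the changes of low genes. Adding the replicate block gave 9063 calls over all genes, and no call among the 10 genes changed. Same-numbered libraries did not deviate together (correlations -0.00, -0.02 and 0.03), which does not show whether they came from a shared culture. The labels state no pairing. In these libraries Terc, Terb1, Terb2 and Majin could not be tested, and Pot1b, with 272 control reads, is the least certain of the calls.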
